A study of Mus musculus with 32 samples.

Results

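Gm22973 (ENSMUSG00000065232) is a mouse gene annotated as a small nuclear RNA, 191 bases long and of the length of U2. It was 1 of 17784 transcripts listed in any of 15 RADICL-seq libraries, and it was selected on measured values, because it was listed in embryonic stem cells and not in oligodendrocyte progenitor cells. In RADICL-seq, RNA in fixed nuclei is ligated by way of an adapter to DNA close by, and sequencing reads a tag of each partner. The 32 samples are the RNA and DNA sides of 15 libraries, 1 of which was sequenced again. The male mouse embryonic stem cell line R08 (mESC) gave 10 libraries and Oli-neu, a line derived from mouse oligodendrocyte progenitor cells (mOPC), gave 5.

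Group names follow the labels. The mESC 1FA group (3 libraries) was crosslinked with 1% formaldehyde and the mESC 2FA group (3 libraries) with 2%. The mESC ActD4 group (2 libraries) was crosslinked with 1% formaldehyde after 4 hours in 5 µg per ml actinomycin D, which blocks transcription. In the mESC NPM group (2 libraries, non-protein-mediated interactions) crosslinks made with 1% formaldehyde were reversed with proteinase K before RNA was ligated. Untreated mOPC gave 3 libraries crosslinked with 1% formaldehyde (mOPC 1FA) and 2 prepared as NPM (mOPC NPM). Each condition came from 1 line per cell type, so a difference between mESC and mOPC is one between 2 lines.

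U2 small nuclear RNA is a core component of the spliceosome, the machine that removes introns from precursor RNA. It binds Sm proteins, SF3A and SF3B to form the U2 snRNP, and it pairs with the branch site of the intron through a stretch in its 5′ part. U2 genes are transcribed by RNA polymerase II and their transcripts are trimmed by the Integrator complex. Mammalian genomes hold many copies of the U2 gene, most of them fragments or pseudogenes.

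The gene lies on the plus strand of mm10 (GRCm38) at chr12:59040335-59040525. It is shown with the annotated U2 gene Rnu2-10 at chr11:101658238-101658428, plus strand, because the reads could be placed only where copies of U2 differ. Capitals in Gm22973 mark the 27 bases around the position at which most of its RNA tags were centred, and capitals in Rnu2-10 mark the 9 bases that differ.
Gm22973: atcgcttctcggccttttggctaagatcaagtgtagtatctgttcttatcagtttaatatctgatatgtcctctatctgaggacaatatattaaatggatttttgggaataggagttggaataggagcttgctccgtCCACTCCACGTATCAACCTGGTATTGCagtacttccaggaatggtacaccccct
Rnu2-10: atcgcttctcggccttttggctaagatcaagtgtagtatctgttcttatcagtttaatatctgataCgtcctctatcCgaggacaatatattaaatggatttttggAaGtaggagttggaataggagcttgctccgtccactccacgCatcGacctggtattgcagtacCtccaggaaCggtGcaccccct
The genes were identical at 182 of 191 bases (95.3%), without gaps. Counted from 1 at the 5′ end, with the base of Gm22973 first and that of Rnu2-10 second, the differences were T67C, T78C, G107A, A109G, T148C, A152G, T170C, T179C and A183G. Gm22973 therefore had the bases of Rnu2-10 throughout the first 66 positions, and all differences lay further 3′. A search of mm10 with Gm22973 found 516 U2-like loci, of which 21 were of full length, Gm22973 itself included.

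The listed RNA tags of Gm22973 were nearly all at 1 place. The files give each tag as a single base at its centre, and since they do not say whether counting starts at 0 or 1, positions may be off by 1 base. The tag was centred on position 151 in 95.9%, 96.8% and 97.0% of its interactions in mESC 1FA. For mESC 2FA the same share was 96.8%, 97.1% and 97.3%, and for mESC ActD4 it was 95.5% and 95.4%. The next most frequent position in these 8 libraries was 152, with 1.27% to 1.78%. All tags were on the plus strand, that of the gene.

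Around position 151, a window of 27 bases (about the length of tag that the enzyme EcoP15I cuts) spans positions 138 to 164. It occurred once in mm10, had no copy with 1 mismatch and had 10 copies with 2 mismatches. T148C and A152G fall in it, as the capitals show.
Gm22973 tag stretch: ccactccacgTatcAacctggtattgc
Rnu2-10 same stretch: ccactccacgCatcGacctggtattgc
These stretches are at chr12:59040472-59040498 and chr11:101658375-101658401 on the plus strand of mm10. Of the 165 windows of 27 bases in the gene, 83 occurred once. The windows that start within the first 40 bases each had 14 to 246 exact matches. Tags of such windows have no unique place in the genome, and the authors kept only tags that mapped uniquely. Of the windows that occurred once, 16 were centred before position 100 and 17, all there were, beyond position 161. Why tags centred where they did was not tested. Whether tags with few mismatches came from other U2 copies was not tested, because the files hold no read sequences.

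**Figure D1:**
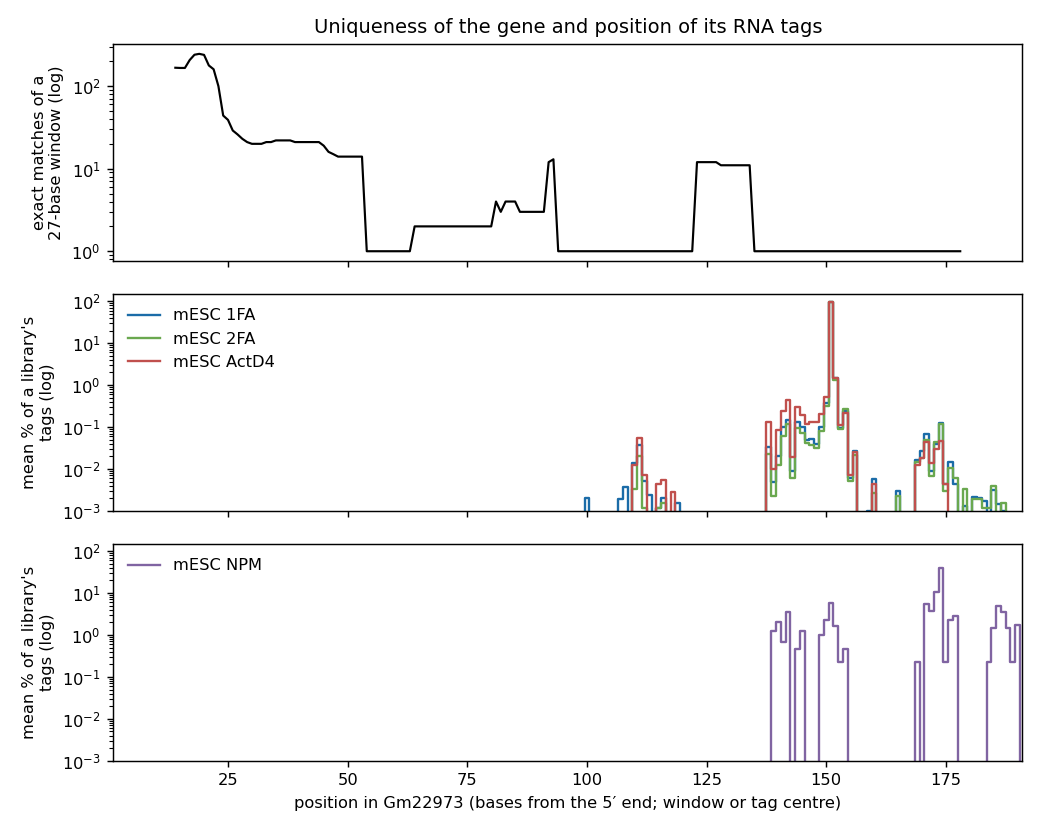
The upper panel gives the number of exact mm10 matches of each 27-base window of Gm22973 (log axis) against the centre of the window. The lower panels give the mean percentage of a library's Gm22973 tags at each position (log axis) in mESC 1FA, 2FA and ActD4 (3, 3 and 2 libraries) and in mESC NPM (2 libraries), with a single dominant peak at 151 in the first 3 groups and the highest point at 174 in NPM.

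In the NPM libraries the tags lay further 3′. The modal position was 174, which held 37.6% of 221 interactions in replicate 1 and 43.1% of 65 in replicate 2, while position 151 held 7.24% and 4.62%. Beyond position 161 lay 81.9% and 76.9% of the NPM tags, against 0.151% to 0.505% in the 8 other mESC libraries. The window around position 174, from 161 to 187, occurred once in mm10, had no copy with 1 mismatch and had 1 with 2 mismatches. It spans 3 of the differences from Rnu2-10.
Gm22973 NPM stretch: ttgcagtacTtccaggaaTggtAcacc
Rnu2-10 NPM stretch: ttgcagtacCtccaggaaCggtGcacc
The stretches are at chr12:59040495-59040521 and chr11:101658398-101658424 on the plus strand of mm10. The 2 libraries thus shared a profile that none of the 8 others had, on few interactions. No test was made of tag position.

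The level of Gm22973 is given in CPM, the number of its listed interactions scaled to the total of all listed interactions of the library. In mESC 1FA it was 27706, 46384 and 39195 in replicates 1 to 3 (mean 37762 ± 9421, SD, n = 3), from 73919, 113253 and 111028 interactions. In mESC 2FA it was 41688, 45989 and 36777 (41485 ± 4609.7, SD, n = 3). In mESC ActD4 it was 44357 and 46203 (45280.1 ± 1305, SD, n = 2). These 8 libraries overlapped in level, with mESC 1FA replicate 1 the lowest, and Gm22973 ranked first of all transcripts in each of them.

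Among the mESC NPM libraries the level was 508.5 and 106.7 CPM, far below every other mESC library, and the rank was 187 and 2462. In all 5 mOPC libraries Gm22973 was listed at 0. The difference between the cell types was the basis of its selection and was not tested. The files list only pairs of a transcript and a 25-kb DNA bin that passed the authors' threshold, so a listed 0 sets no limit on capture in mOPC. These are bulk samples, so fewer cells that express an RNA and less of it per cell cannot be told apart. In decreasing order the group means ran ActD4, 2FA, 1FA, NPM and mOPC, and the first 3 did not differ beyond their spread.

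**Figure D2:**
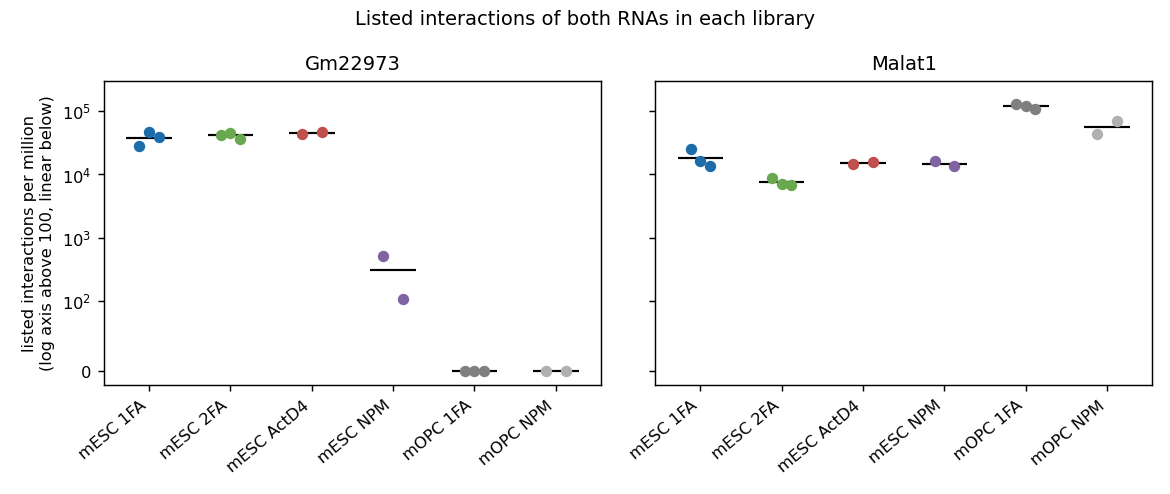
Level (CPM) of Gm22973 and of Malat1 in each of the 15 libraries (points) with the group mean (line), on an axis that is logarithmic above 100 and linear below. Gm22973 lay between 27706 and 46384 in mESC 1FA, 2FA and ActD4, at 508.5 and 106.7 in mESC NPM and at 0 in mOPC, while Malat1 was listed in all libraries.

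Listed interactions between different chromosomes (trans) were in large part those of Gm22973 in mESC 1FA, 2FA and ActD4. The paper reports that its threshold removed many trans interactions, so these shares do not describe all captured trans contacts. The share of Gm22973 in all listed trans interactions was 49.1%, 67.3% and 70.4% for the mESC 1FA libraries. For mESC 2FA this share was 79.5%, 78.8% and 78.3%, and for mESC ActD4 51.9% and 50.7%. The shares in mESC 2FA were above all of those in the other groups. In NPM it held 1.13% and 0.138%. Malat1, a nuclear long noncoding RNA with contacts on most chromosomes, moved the other way between 1FA libraries, with 25278, 16333 and 13461 CPM, so that replicate 1 stood apart for both RNAs. Malat1 had 8739, 7125 and 6801 CPM in mESC 2FA and 108162 to 132215 in mOPC 1FA. In 2FA it fell by 1.28 on the log2 scale (SE 0.19, limma adjusted p = 0.0358), the 1 transcript called lower in the fit without replicate pairing. Gm22973 was not called there. Without 1 library at a time, the log2 fold change of Malat1 was −1.48 to −1.02 (limma adjusted p 0.00737 to 0.242). With any 1 mESC 2FA library left out, 0 transcripts were called.

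The labels of the lines were checked against markers. All 10 mESC markers were listed in mESC 1FA, at a sum of 2281 to 2824 CPM, against 1.81 to 3.00 in mOPC 1FA, where 2 were listed and Pou5f1 and Nanog were at 0. The 10 oligodendrocyte progenitor markers summed to at most 41.4 in mESC 1FA, with Olig1 and Olig2 at 0, and to 10901 to 12544 in mOPC 1FA. Markers of differentiated cells summed to 48.4 to 188 in mESC 1FA.

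Whether each treatment changed the capture of Gm22973 relative to mESC 1FA was tested with limma on log2 CPM over all transcripts, with Benjamini-Hochberg adjustment. In mESC 2FA the log2 fold change was 0.12 (SE 0.15, limma adjusted p = 0.798), where 3 of 9962 transcripts (0.0301%) passed the threshold (0.0201% upward, 0.0100% downward). This fit ignores that the libraries of mESC 1FA and 2FA pair by replicate number. With that number as a block 451 transcripts passed, 164 upward and 287 downward, and Gm22973 did not (limma adjusted p = 0.531). In mESC ActD4 the log2 fold change was 0.18 (SE 0.19, limma adjusted p = 0.424), where 6021 of 9896 (60.8%) were called and the median transcript was at −0.31. Neither difference passed the threshold, and both turned sign without mESC 1FA replicate 1 (−0.09 and −0.0095). Of the pairs with at least 20 interactions alone, the ActD4 value was −1.94 (limma adjusted p = 4.80e-05), and 258 of the 1871 bins listed in ActD4 reach that size.

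Gm22973 fell in mESC NPM by 7.81 on the log2 scale (SE 0.52, limma adjusted p = 4.80e-06), from a mean of 99400 listed interactions to 143. Interactions in pairs that missed the authors' threshold are not counted, and their part in the fall was not tested. Of 10096 transcripts tested 49.8% were called there, 27.2% in the direction of a fall. Without 1 library at a time the value was between −8.95 and −6.78. The replicate files of a group hold the same p-value for every pair, so each group has 1 pooled list of pairs, and the spread between its libraries understates that of libraries called separately.

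In mESC 1FA, 2FA and ActD4 Gm22973 was nearly the whole of what was listed for annotated small nuclear RNA genes. Over all libraries together, of the interactions of the 10 such genes listed in any library, 608331 (99.9%) were those of Gm22973 and 336 those of all others. In mESC 1FA it was the only one listed. In mESC NPM all 10 were listed, Gm25099 with 70 and 10 interactions beside the 221 and 65 of Gm22973, and in mOPC only others were. Rnu12, the U12 RNA of the minor spliceosome, had 1, 4 and 2 interactions in mESC 2FA, 31 and 9 in mESC NPM, and 4, 3 and 3 in mOPC 1FA. Rnu11, the U11 RNA, was listed only in mESC NPM, with 8 and 3. None of 9 genes on a list of named spliceosomal small nuclear RNAs passed the filter on low counts. Since only tags that mapped uniquely were kept, tags from stretches shared between gene copies could not be listed. The counts therefore do not rank these RNAs by their abundance on chromatin, and how many tags were lost this way was not tested.

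Other small noncoding nuclear RNAs were read from a list of 8. Of these, 5 were tested in ActD4 and all 5 rose, with a median log2 fold change of 3.07, where 19.5% of all transcripts tested were called higher. Snord118, the U8 small nucleolar RNA, had 984.3, 2350.1 and 1126.5 CPM in mESC 1FA and 20882 and 23359.6 in ActD4. Rn7sk, the 7SK RNA that holds P-TEFb inactive, had 9.75, 26.2 and 13.8 CPM in mESC 1FA and 401 and 342 in ActD4. Both groups were apart in each case, with log2 fold changes of 3.89 (limma adjusted p = 3.10e-05) and 4.47 (limma adjusted p = 2.89e-05).

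Rmrp, the RNA of RNase MRP, rose by 2.40 in ActD4 (limma adjusted p = 2.63e-05) and Rnu3a, a U3 small nucleolar RNA, by 3.07 (limma adjusted p = 1.30e-05). In NPM 6 of the list were tested, and 22.6% of all transcripts were called higher. Rn7sk (3.29) and Rmrp (2.09) rose on the log2 scale, Snord118 fell by 3.10, and Rnu3a (1.06) and Rnu73b (0.06) did not pass. Without 1 library at a time Rnu3a ranged from −0.14 to 2.16, and with a replicate block it passed. Rpph1, the RNA of RNase P, had 5, 13 and 5 interactions in mESC 1FA and 14 and 13 in NPM, and it passed the filter only through NPM. None of the 5 tested passed in 2FA. A test of the difference between Gm22973 and these RNAs was not made.

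Transcripts of genes that serve U2 were read from 2 further lists. Of those encoding proteins of the U2 snRNP, 10 of 26 tested rose and 2 fell in ActD4 (19.5% and 41.3% of all transcripts), 9 rose and 1 fell of 27 in NPM (22.6% and 27.2% of all), and none of 27 passed in 2FA. Sf3b3, a subunit of SF3B, had 379, 378 and 392 CPM in mESC 1FA and 571 and 564 in ActD4. Of genes for transcription and processing of small nuclear RNAs, Integrator among them, 8 rose and 11 fell of 29 tested in ActD4, 6 rose and 4 fell of 29 in NPM, and none of 30 passed in 2FA. Of the 11 falls in ActD4, those of Ints3, Ints6, Ints10, Ints13, Snapc3 and Zc3h8 were of transcripts that passed the filter through mESC 1FA alone, where they were high, and are a description. The same holds for the fall of Sf3b4 in NPM on the list of U2 snRNP proteins, through mESC 1FA, and for the rise of Htatsf1, through NPM.

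Gm22973 was listed in 9256 bins of 25 kb in mESC 1FA, 9020 of them in trans and 236 on chromosome 12. Each bin held few interactions, between 22 and 211 over the 3 libraries together, with a median of 29. In mESC 2FA it was listed in 9437 bins (20 to 252 interactions, median 27) and in mESC ActD4 in 1871 (12 to 80, median 15). In mESC NPM it was listed in 8 bins (10 to 113). The lowest listed value thus differed between groups. Per the study, the actinomycin D and NPM datasets of mESC also held fewer uniquely mapped interactions before the threshold than the mESC 1FA dataset. The numbers of bins were not adjusted for this, and an effect of treatment on them was not tested.

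The bin that holds the Gm22973 gene had 15, 19 and 13 interactions in mESC 1FA, rank 708 among its bins, and 17, 31 and 22 in mESC 2FA. In mESC ActD4 it had 15 and 10, or 0.807 and 0.860 per 1000 interactions of the RNA. In mESC NPM it had 44 and 24, or 199 and 369 per 1000, against 0.117 to 0.203 per 1000 in mESC 1FA. The NPM libraries had by far the highest share in this bin, on few interactions.

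Most bins of mESC 1FA recurred in mESC 2FA. Of its bins 6609 were also listed there (71.4% of the former and 70.0% of the latter). Bins of mESC 1FA that were not listed in mESC 2FA had a median of 25 interactions, against 32 for those listed in both, and so lay nearer the lowest listed value of 22. Of the 1871 bins of ActD4, 1687 (90.2%) were listed in mESC 1FA, and these were 18.2% of the mESC 1FA bins. Of the 8 NPM bins, 5 were listed in mESC 1FA.

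The bin with the most interactions held 49, 110 and 52 in mESC 1FA, at chr17:39825001-39850000, with AY036118, CT010467.1, Gm26917 and Gm42418, gene models that overlap ribosomal RNA sequence. It was also the first of all bins over all RNAs, with interactions of 1090 RNAs. In NPM it held 84 of 221 and 29 of 65 Gm22973 interactions. The next were 2 neighbouring bins at chr11:3150001-3200000 in Sfi1, a centrin-binding protein gene, with 42, 78 and 70 interactions in the first and 38, 43 and 61 in the second. Over all RNAs these bins ranked 7 and 27, with interactions of 65 and 48 RNAs. Per the study's methods, significant contacts that met blacklisted regions of mm10 were removed. Whether the deposited lists come from before or after that step is not stated, so these leading bins may lie in such regions. Both Sfi1 bins were also listed in ActD4 (33 and 21, 31 and 21) and in NPM (11 and 1, 14 and 3).

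The other leading bins mostly held several genes each, of which 1 or 2 are named here. They were the bins of Dhx9, an RNA helicase (37, 36 and 46 interactions in mESC 1FA), Eif4a1, a translation initiation factor (32, 36 and 37), Rpl3, a ribosomal protein (22, 40 and 42), Eef2, an elongation factor (25, 51 and 27), Ftl1 and Bax (26, 40 and 36), and Hnrnpa2b1 and Cbx3 (25, 35 and 40). A bin at chr9:123925001-123950000 with 25, 35 and 43 held no annotated gene. The Dhx9 bin was not listed in ActD4 while the Eif4a1 bin had 23 and 18 interactions there. The 10 leading bins of each library held 0.464%, 0.465% and 0.431% of Gm22973 interactions in mESC 1FA, so the contacts were spread thinly.

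In NPM the 8 bins were the ribosomal bin, that of the Gm22973 gene, both Sfi1 bins, the mitochondrial genome (20 and 1 interactions), a bin with Gm11668 (19 and 3), a bin with n-R5-8s1, annotated as 5.8S ribosomal RNA (21 and 2), and the bin of Rmrp (8 and 2). Replicate 1 held most of these interactions. All 8 bins had tags of the 3′ positions 173 or 174 in at least 1 library, in differing shares. In the bin of the Gm22973 gene these positions held 6 of 44 and 6 of 24 tags, against 52 of 84 and 21 of 29 in the ribosomal bin.

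Bins contacted by Gm22973 in trans were rich in genes. Their median GC content in mESC 1FA was 47.2%, against 41.1% over all bins of the assembled chromosomes and 43.1% over bins listed for any RNA. A protein-coding gene lay in 90.3% of them (51.5% of all bins, 64.9% of bins listed for any RNA) and a coding gene start in 53.1% (16.9% of all bins, 21.4% of bins listed for any RNA). In ActD4 these were 49.6%, 96.7% and 71.3%. The bins of mESC 1FA also listed in ActD4 had a median of 39 interactions in mESC 1FA, against 28 for those not listed there. The shorter ActD4 list thus leaned to the more contacted bins, and a change of these features by treatment was not tested. Bins contacted by Malat1 in trans in mESC 1FA had 47.7%, 91.3% and 54.9%, close to those of Gm22973. Of the 9020 trans bins 4091 were listed for Malat1 too (45.4% of those of Gm22973, 76.0% of the 5381 of Malat1). In 4832 (53.6%) no other RNA was listed in trans, which does not exclude contacts below the authors' threshold.

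Contacts were uneven between chromosomes. Without its own bin and the ribosomal bin, chromosome 11 held 14.5%, 13.6% and 13.6% of Gm22973 interactions in mESC 1FA, which is 3.00 times its share of the assembled length. Chromosome 8 held 9.94%, 10.3% and 10.1% (2.06 times), and chromosomes 17 and 19 each 1.65 times their share. Chromosome X held 0.460%, 0.378% and 0.403%, or 0.0637 times its share of length, which does not allow for the single X of a male line, and chromosome 13 was the next lowest at 0.375 times. Chromosome 12, which carries the gene, held 2.20% to 2.32% (0.498 times). In all 3 libraries of mESC 1FA chromosome 11 was the highest by this ratio, chromosome 8 the next, chromosome 13 the second lowest and X the lowest.

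In ActD4 chromosome 8 held 16.19% and 16.05%, above all mESC 1FA libraries, and chromosome X 0.0540% and 0.0345%. Over the bins listed in both groups it held a mean of 16.7% in mESC 1FA and 16.5% in ActD4. The higher share of chromosome 8 in ActD4 was thus not seen within the same bins. Malat1 in trans held 14.9% ± 0.631 (SD, n = 3) on chromosome 11 and 13.7% ± 0.507 (SD, n = 3) on chromosome 8 in mESC 1FA, 0.149% on chromosome X.

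**Figure D3:**
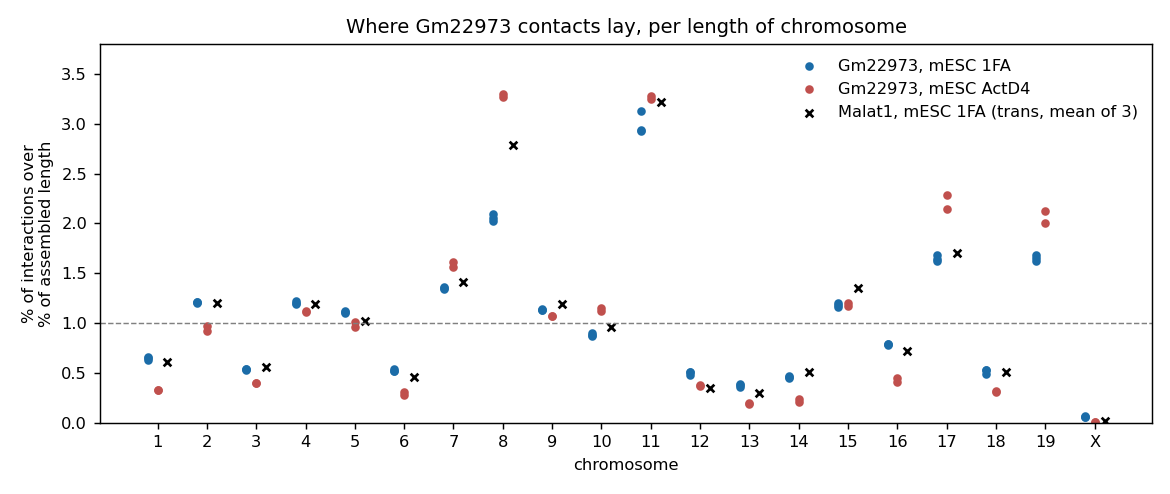
Percentage of Gm22973 interactions on each chromosome divided by the chromosome's percentage of assembled length, for each library of mESC 1FA (3 points) and mESC ActD4 (2 points), with the mean of Malat1 trans interactions in mESC 1FA (crosses, none on its own chromosome 19). Chromosomes 8 and 11 were the highest for both RNAs and chromosome X the lowest.

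Which DNA genes Gm22973 contacted was read from the gene given for each DNA tag, in trans. A tag that lies in overlapping genes counts for each of them. In mESC 1FA 10764 genes had at least 1 interaction, 8320 of them protein-coding, while 2307 had a mean of at least 10 per library and 55 a mean of at least 50. Across the 2307 genes the number of interactions rose with gene length (Spearman's rho 0.58). The number per kb was related to that of Malat1 (rho 0.64, 1831 genes) and little to the interactions per kb of the gene's own RNA (rho 0.13, 2275 genes). Both rates of a pair were divided by the same gene length, which can by itself raise rho. The genes were also chosen by their Gm22973 interactions. All these rho values are descriptions across genes, which share libraries and are not independent replicates.

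The gene with the most interactions was Gm20388, a model of 4434.9 kb on chromosome 8 that spans many other genes, with 1044, 1725 and 1526 in mESC 1FA. Gm26904, a noncoding gene on chromosome 17, had 143, 223 and 185. Gse1, which encodes a chromatin cofactor and lies within Gm20388, had 130, 217 and 161. The 20 leading genes were at least 61.6 kb long, such as Macf1, a microtubule and actin crosslinker (93, 126 and 145), and held 4.15% of genic interactions. Others among the 20 were Cacna1a, a calcium channel (75, 130 and 106), Fgfr2, a growth factor receptor (67, 115 and 96), the chromatin remodeller Chd9 (60, 99 and 103), the deubiquitinase Usp34 (69, 78 and 101), the chromatin regulator Ankrd11 (65, 89 and 87) and the corepressor Ncor1 (54, 71 and 112).

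**Figure D4:**
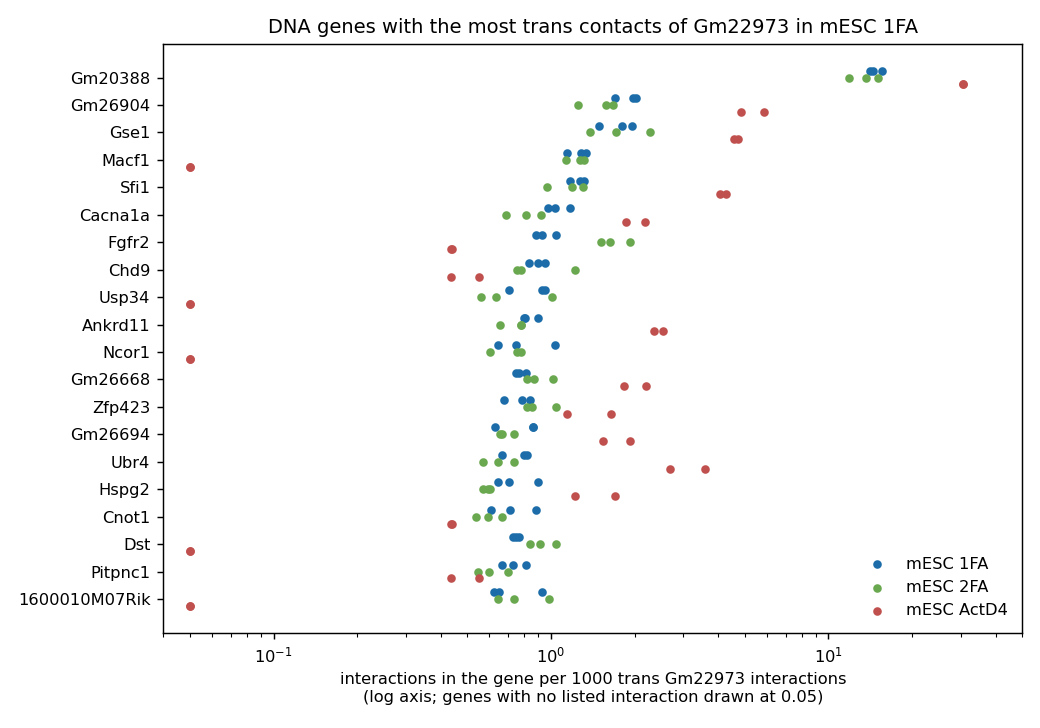
Interactions per 1000 trans interactions of Gm22973 (log axis) in the 20 DNA genes with the highest mean in mESC 1FA, for each library of mESC 1FA, 2FA and ActD4. The 1FA and 2FA points overlapped for most genes, and in ActD4 some genes such as Gm20388, Gse1 and Sfi1 lay higher while Macf1, Usp34, Ncor1, Dst and 1600010M07Rik had no listed interaction (drawn at 0.05).

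Per kb of gene, with a mean of at least 50 interactions, Gm26917 in the ribosomal bin led with 15.7 per library. Sfi1 followed with 1.96 (95, 130 and 138 interactions), and Cnot1, the scaffold of the CCR4-NOT deadenylase, with 0.829 (44, 79 and 96). Fn1, the fibronectin gene, had 0.798 and exactly 54 interactions in each library. Prrc2b (0.767), Hspg2, encoding perlecan (0.720), the histone demethylase Kdm5b (0.706), the histone methyltransferase Nsd1 (0.639) and the transcription factor Nfix (0.634) came next. Apart from Gm26917, Sfi1 was the only one of these genes above 1 per kb.

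Gene lists differed in how many members had at least 1 Gm22973 interaction in mESC 1FA. Of all protein-coding genes 38.8% had, at 0.0678 interactions per kb and library. Of splicing factor genes 36 of 38 (94.7%) had, at 0.558 per kb. Rbm39 had 21, 32 and 37 interactions, Hnrnpu 27, 19 and 27, Srrm2 16, 24 and 32, and Prpf8, a core protein of the spliceosome, 20, 18 and 26. Of genes for cytosolic ribosomal proteins, whose median length was 3.24 kb against 17.2 kb for all coding genes, 69 of 86 (80.2%) had, at 0.873 per kb. Rpl3 had 13, 30 and 22. Since the lists hold expressed genes, the comparison with all genes does not set them apart from other expressed genes, and no test was made.

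Genes for the U2 snRNP and its partners were contacted in 21 of 29 cases (72.4%), at 0.401 per kb, led by Sf3b3 (32, 40 and 45 interactions) and U2surp (28, 24 and 29). Of genes for transcription and processing of small nuclear RNAs 19 of 32 were contacted (59.4%, 0.153 per kb), led by Ell (26, 39 and 31), and of small nucleolar RNA host genes 11 of 15 (73.3%), led by Snhg17 (5, 11 and 10). Of 9 spliceosomal small nuclear RNA loci Rnu11 alone was contacted, by 1 interaction in 1 of 3 libraries. Of 8 loci of other small nuclear RNAs 3 were contacted, by 1 interaction each in 1 or 2 libraries. These loci are short (medians 0.164 and 0.215 kb), and their interactions came to 0.245 and 1.03 per kb over each list, on counts too low to rank them against longer genes. Histone genes were contacted in 18 of 70 cases (25.7%), a lower share than that of all coding genes, but at 0.160 per kb, a higher rate per kb. Their median length was 0.532 kb, and Hist1h1c had 1, 5 and 2.

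Genes of the stem cell state were contacted in most cases, 23 of 28 on a list of pluripotency genes (82.1%, 0.355 per kb). Tet1, a DNA demethylase, had 30, 63 and 52 interactions, Jarid2, a Polycomb partner, 26, 61 and 64, and Trim71 23, 27 and 22. The marker Tfcp2l1 had 18, 34 and 20, and Pou5f1, which encodes Oct4, had 3, 3 and 7. Of oligodendrocyte progenitor markers 4 of 10 had any (Cnp with 13, 8 and 15 the most) and of differentiated cell markers 2 of 8, where 38.8% of all coding genes had any. The share of progenitor markers is near that of all coding genes.

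For each library the share of Gm22973 interactions that were trans, the share with the DNA tag in a gene, and the share in its 10 leading bins were compared with mESC 1FA by an exact two-sided permutation test over libraries. The smallest p these designs allow is 0.1, so no difference could pass, and 9 comparisons were made. In mESC 1FA 97.8%, 97.7% and 97.7% were trans, against 97.7%, 97.6% and 97.3% in 2FA, 98.2% in both ActD4 libraries, and 80.1% and 63.1% in NPM. The NPM libraries were the only ones below 97%. Each of these differences had an exact p of 0.1 (adjusted 0.1125).

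The DNA tag lay in a gene for 72.3%, 72.0% and 72.7% of interactions in mESC 1FA, 70.6%, 70.4% and 70.8% in 2FA, 79.7% in both ActD4 libraries, and 88.7% and 92.7% in NPM (exact p = 0.1 each, adjusted 0.1125). No group overlapped with mESC 1FA. With each bin counted once the difference was −0.275 points in 2FA, where the groups overlapped (exact p = 0.6), and −5.60 points in NPM, in the other direction. Over the bins listed in both groups the difference of ActD4 from mESC 1FA was 2.11 points in place of 7.35. The 10 leading bins held 1.46% and 1.60% in ActD4 and all of the interactions in NPM, where only 8 bins were listed, against 0.398% to 0.545% in 2FA, which overlapped with mESC 1FA (exact p = 0.9). The sign of the ActD4 difference in trans share and in leading bins turned over the bins listed in both groups (−0.222 and −0.202 points).

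Along genes Gm22973 was set beside Malat1 in the same libraries. Within 2 kb of an annotated gene start lay 14.2%, 15.3% and 13.6% of genic trans tags of Gm22973 in mESC 1FA and 14.7%, 15.0% and 13.2% of those of Malat1. The mean difference was 0.0699 points ± 0.511 (SD, n = 3, exact sign-flip p = 1), of either sign between libraries. With 2FA libraries added it was −0.786 points, and in the 3 libraries of mESC 2FA it was −1.38, −2.09 and −1.45 points. Over bins listed for both RNAs it was 0.687 points (SD 0.509, n = 3, exact sign-flip p = 0.25), higher in 3 of 3. In a gene lay 72.4%, 72.1% and 72.7% of trans tags of Gm22973 and 73.3%, 72.9% and 72.9% of those of Malat1. That difference was −0.628 points ± 0.393 (SD, n = 3, exact sign-flip p = 0.25, the smallest possible), lower in 3 of 3 libraries. With 2FA libraries added it was −0.843 points, lower in 6 of 6 libraries, which pair by replicate number and are not 6 independent sets. Over bins listed for both RNAs it was 0.326 points in the other direction (exact sign-flip p = 0.25).

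When genes longer than 10 kb were split into 10 equal parts, the part at the 5′ end held 12.8%, 13.3% and 12.4% of Gm22973 tags and 12.4%, 12.9% and 11.7% of Malat1 tags in mESC 1FA. The part at the 3′ end held 11.6%, 11.6% and 11.7% of Gm22973 tags. Both ends of genes thus held somewhat more than the middle, where part 4 held, for Gm22973, 8.72%, 8.63% and 8.39%.

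The RNAs most like Gm22973 were sought by Pearson's r of pooled mESC 1FA interactions per bin, over bins in which either RNA was listed and among RNAs listed in at least 100 trans bins. Only 3 RNAs qualified, namely Rmrp (r 0.19, 9286 bins), Malat1 (r 0.18, 10550 bins) and Snord118 (r 0.15, 9460 bins). Without chromosome 12 and the ribosomal bin, r was 0.08, 0.15 and −0.07, so that only the value for Malat1 changed little. Over the bins listed for both RNAs alone, r was 0.52 for Rmrp (86 bins), 0.46 for Snord118 (239 bins) and 0.27 for Malat1 (4376 bins). These correlations share libraries and depth and are descriptions without a test.

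Whether the distribution over DNA genes changed was tested for genes listed in both groups with a mean of at least 10 interactions, with limma on the log2 share of the library's Gm22973 interactions. In mESC 2FA 299 of 2015 genes (14.8%) were called, 119 higher (5.91%) and 180 lower (8.93%). Of these, 70 higher and 108 lower genes had a mean of at least 10 only in the group where they were high, which left 49 and 72 among 1525 genes with such a mean in both. Without mESC 1FA replicate 3 the count fell to 184. Luzp1 had 35, 33 and 44 interactions in mESC 1FA and 4, 5 and 2 in 2FA. Its log2 fold change was −3.18. Vmp1, an autophagy gene, had 22, 43 and 43 and then 3, 7 and 7 (−2.52). Dgkg, a diacylglycerol kinase gene, had 6, 7 and 10 and then 43, 35 and 31 (2.26), and Kat6b, a histone acetyltransferase gene, 14, 20 and 13 and then 55, 64 and 56 (1.95, SE 0.24, limma adjusted p = 2.60e-07).

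The other large changes in 2FA were those of Tlk2 (1.55), St5 (1.53) and Grik3 (1.45), which rose, and of Bicdl1 (−2.14), Prex1 (−2.003) and Mtor (−1.80), which fell. In each of these 10 genes the groups did not overlap, as the rule that named them required. Luzp1, Vmp1, Bicdl1 and Dgkg had a mean of at least 10 in 1 of the 2 groups only and so passed the filter through the group where they were high, and their values are given as a description. Over only those bins listed in both groups, none of 1580 genes was called by limma, with 49 at an unadjusted p under 0.05, and Tlk2 was at −0.07, Kat6b at 0.28, Grik3 at 0.0047, Bicdl1 at −0.75, Prex1 at −0.50 and Mtor at −0.32. Luzp1, Vmp1, Dgkg and St5 did not pass the filter over those bins.

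In mESC ActD4 403 of 620 genes (65.0%) were called, 379 higher (61.1%) and 24 lower (3.87%) and the median gene was at 1.18. All 24 lower genes had a mean of at least 10 in mESC 1FA only, and at most 7.5 in ActD4, so their count is a description, as are the 21 higher genes with such a mean in ActD4 only. Of 179 genes with such a mean in both groups 174 were called, each higher. The ActD4 libraries held 18238 and 11430 trans interactions of Gm22973, against 72282 to 110612 in mESC 1FA. A mean of 10 is thus a larger share in ActD4, and this filter favoured genes that were higher there. The count of 174 is therefore a description too. With TMM scaling over DNA genes 210 were called, 84 higher and 126 lower. Rbpms, an RNA-binding protein gene, had 22, 56 and 47 interactions in mESC 1FA and 44 and 27 in ActD4 (2.53, SE 0.22, limma adjusted p = 6.55e-06), and Myh9, a nonmuscle myosin gene, had 16, 38 and 42 and then 27 and 23 (2.45). Sugp2, a gene for a protein with a splicing factor motif, was at 2.38, the arginine methyltransferase gene Carm1 at 2.27 and Rptor at 2.25. Ino80, a chromatin remodeller gene, had 38, 43 and 64 and then 0 and 1, and Ep400 36, 51 and 65 and then 3 and 0. Bsn was at −1.81, Mtor at −1.69 and Gm26786 at −1.44. These 5 genes are among those 24.

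Over the bins listed in both groups none of 294 genes was called by limma in ActD4, with 28 at an unadjusted p under 0.05, and Rbpms was at 0.40, Myh9 at 0.53, Sugp2 at 0.47 and Carm1 at 0.36. The central 90% of genes lay between −0.80 and 0.65 there, against −1.50 and 2.59 over all listed bins. In 2FA the same ranges were −0.53 to 0.47 and −1.27 to 1.04. No gene tested within the bins listed in both groups kept its call. Called genes that did not pass the filter over those bins, Rptor in ActD4 among them, were not tested there. In NPM 18 genes had trans interactions, too few for a fit.

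**Figure D5:**
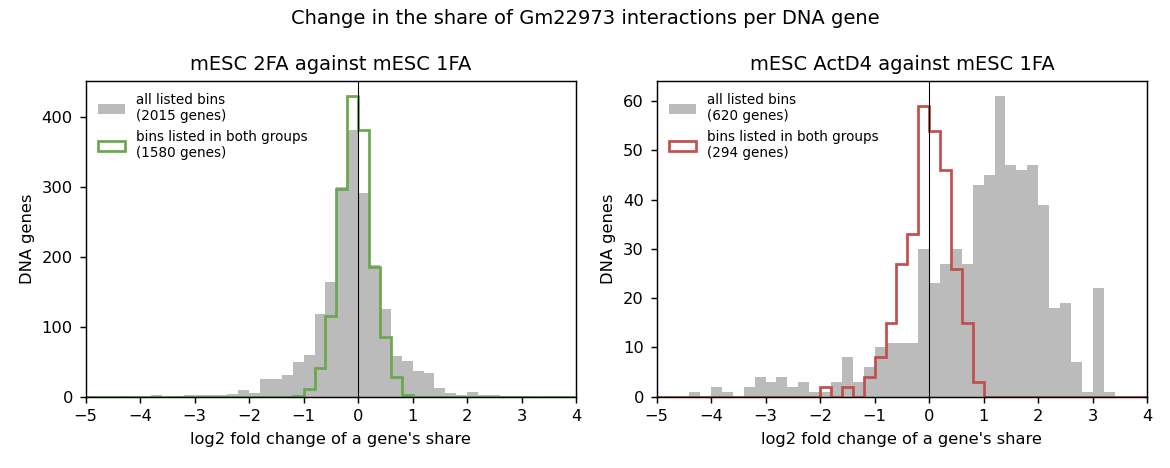
Number of DNA genes by log2 fold change of their share of Gm22973 interactions, mESC 2FA (left) and mESC ActD4 (right) against mESC 1FA, over all listed bins (grey, 2015 and 620 genes) and over bins listed in both groups (outline, 1580 and 294 genes). The outlined distributions are narrow and centred near 0, and the grey one of ActD4 has its median at 1.18.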

How the data were processed

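The deposited files hold 1 line per listed RNA–DNA interaction, with the p-value and adjusted p-value of its pair, which the authors calculated by a binomial test and kept under an adjusted 0.05. Per the labels and the study's methods, tags were aligned to mm10 with BWA 0.7.15-r1140, after CASAVA 1.8 (submitters' processing notes), and kept at mapping quality 37. No column was left unmapped (0). How the second run of mESC NPM replicate 1 entered its file is not given in the sources used here.

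Members and gene lists were chosen with earlier results of these data known. Lines that repeated an interaction were counted once. Interactions per library were 2441619 to 2832717 in mESC 1FA, 2035499 to 2515347 in 2FA, 251802 to 418781 in ActD4 and 434610 to 608994 in NPM. They are totals of listed pairs, not depth. Counts per transcript (at least 10 in as many libraries as the smaller group has, total at least 15) were scaled by TMM and fitted as log2 CPM, prior count 0.5, with limma 3.58.1 in R 4.3.3. The fit was tested on simulated data. DNA genes were fitted as log2 of the share of Gm22973 interactions. Windows and loci were matched with BLAST 2.17.0, and genes are from GENCODE for GRCm38. Replicates are batches of cells of different passage numbers, per the study's methods. P-values measure the spread between these libraries. Replicate numbers of mESC 1FA and 2FA pair the libraries (correlations of deviations 0.54, 0.43 and 0.62 over 4931 transcripts), those of ActD4 and NPM do not (−0.05 to 0.0056).

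Named were the 20 DNA genes with the highest mean, the 10 with most per kb among those with a mean of at least 50 (1 is not reported here), for each DNA gene fit the 5 largest rises and 5 largest falls among called genes with a mean of at least 20 and groups that do not overlap, 4 members of each list with the most interactions, and the 10 leading bins. Alternatives changed scaling, filters, prior count, pair size, pairing and libraries. Bins listed in both groups, as an alternative, was chosen after seeing the data.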

Additional observations from a re-analysis of the deposited data

How the results depend on the processing

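Of 478 values recomputed under alternatives, 12 for comparisons and 2 for single genes turned sign. With the sign kept, 19 values for single genes no longer passed 0.05 and 8 newly did. For comparisons 1 value newly passed 0.05, and 7 counts of called DNA genes lay far from the main count. Leaving out 1 library at a time, the capture of Gm22973 ranged from −0.0880 to 0.263 in 2FA, −0.0095 to 0.34 in ActD4 and −8.95 to −6.78 in NPM (log2), with the sign in 2FA and ActD4 turned by mESC 1FA replicate 1. The share in the 10 leading bins in 2FA ranged from −0.0231 to 0.0504 points, below 0 without mESC 2FA replicate 2. Near gene starts the difference from Malat1 ranged from −0.0893 to 0.364 points, below 0 without replicate 2 (−0.0654) or 3 of mESC 1FA, and the genic difference from −0.855 to −0.502. Genes called numbered 184 to 271 in 2FA (184 without mESC 1FA replicate 3) and 320 to 526 in ActD4. Rnu3a in NPM ranged from −0.14 (without mESC NPM replicate 1) to 2.16.

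Pairs of at least 20 turned the capture in ActD4 to −1.94. Over bins listed in both groups, ActD4 was at −0.222 points for trans share and −0.202 for leading bins, Tlk2 in 2FA at −0.0700, and 0 genes were called in either group by limma (49 and 28 at an unadjusted p under 0.05). A mean of at least 20 left 83 called genes in 2FA and 92 in ActD4, where fewer were tested. For ActD4, TMM scaling called 210 and genes listed in either group 751. With each bin counted once the genic difference in NPM was −5.60 points. The difference from Malat1 near starts was −0.786 points with 2FA libraries added and −0.154 within 5 kb, and the genic one −0.843 with them and, over bins of both RNAs, 0.326. The cause of these shifts was not tested.

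With the replicate block the capture was 0.12 in 2FA (limma adjusted p = 0.531), 0.23 in ActD4 (limma adjusted p = 0.120) and −7.76 in NPM (limma adjusted p = 2.02e-09), and 349 and 353 DNA genes were called in 2FA and ActD4. Paired differences in 2FA were −0.20 points (trans), −1.75 (genic) and 0.0151 (leading bins). They were 0.487, 7.504 and 1.06 in ActD4 and −26.1, 18.5 and 99.5 in NPM. The block brought Malat1 in ActD4 (−0.51) and Rnu3a in NPM (0.84) past the threshold. It changed no other ActD4 or NPM call of Malat1, Snord118, Rmrp, Rn7sk or Rnu3a. In 2FA 451 of 9962 transcripts were called with the block, against 3 without it. In ActD4 5149 of 9896 were called with it, against 6021. Counts for lists of transcripts were read only in the fit without the block. Values over 65 NPM interactions are imprecise.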
